A study of Rattus norvegicus with 62 samples.

Results

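Amygdala transcriptomes of blast-exposed rats were compared between a chronic and a sub-acute cohort. The comparison used the 31 libraries labelled as blast, of 62 in the series, with 14 chronic and 17 sub-acute animals and 1 library per animal. The other animals were sham controls, 14 chronic and 17 sub-acute, which were handled in the same way apart from the blast wave. All were male Long Evans rats aged 10 to 12 weeks at the start. Blast animals received 3 exposures at 74.5 kPa in a shock tube, 1 per day, under isoflurane anesthesia and restraint. The sub-acute cohort, labelled acute in the deposit, entered behavioral testing 1 to 1.5 months after exposure, and the chronic cohort 12 to 14 months after. Sham and blast animals went through a battery of behavioral tests before collection, and the chronic cohort was not given the object recognition and prepulse inhibition tasks of the sub-acute cohort. Chronic animals were also older and had been housed longer, so time since blast, age, housing and the tests given cannot be told apart here.

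The punches took the central and basolateral nuclei of both hemispheres. The basolateral nucleus is a cortex-like structure of mainly glutamatergic neurons that assigns emotional value to sensory input, and the central nucleus is a mainly GABAergic output structure that drives autonomic and behavioral signs of fear. Repeated low-level blast is used in rodents to model the mild traumatic brain injury of soldiers, in which anxiety is a frequent late complaint. A punch holds neurons, glia and blood vessels together, so fewer cells of a type and less RNA per cell cannot be told apart.

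Genes appear in the deposited table as Ensembl identifiers, and the gene table at hand paired 0 of 32545 of these with a symbol. The results are therefore given as numbers of genes, their sizes of change and the levels of 4 identifiers whose names and functions are not stated here. For the same reason the labelled tissue was not checked against marker genes, and no cell type or pathway was assigned.

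Chronic blast libraries had fewer counts than sub-acute blast libraries. Totals per animal ran from 18220986 to 51769475 in the chronic group, with a median of 37460121, and from 42197779 to 72512545 in the sub-acute group, with a median of 54959799. The mean log2 total was 0.54 lower in the chronic group (-0.54, two-sided permutation test, adjusted p = 6.0e-05 over 3 comparisons). The unadjusted p of 2.0e-05 is the smallest possible in this permutation test with 100000 resamples. The number of genes with at least 1 count had a median of 19731 in chronic and 19764 in sub-acute animals. The means were 19583 and 19728 (permutation test on the means, p = 0.37, adjusted p = 0.56). The 20 most abundant genes of a library took a median share of 9.28% of its counts in chronic and 9.48% in sub-acute animals. The mean shares had the opposite order, 9.34% and 9.14% (permutation test on the means, p = 0.74, adjusted p = 0.74). Along the first principal component of all 62 libraries, which held 20.3% of the variance, 5 libraries lay more than 3 median absolute deviations from the median. They were chronic blast animals CB111, CB147 and CB149 and 2 chronic sham animals, and no sub-acute library was among them. Animal CB149 was also the shallowest of the series. A check for libraries deposited more than once found none among the blast animals of a group.

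At the chronic time-point 1609 genes differed from the sub-acute time-point in blast animals, 9.73% of the 16535 tested, with an adjusted p under 0.05 in limma and a fold change of at least 1.2. Of these, 1109 were higher in chronic animals (6.71% of the genes tested) and 500 were lower (3.02%), so that 68.9% of them were higher. Without the fold threshold the same test gave 1297 higher and 1159 lower genes, 52.8% of them higher. Without the 5 libraries that stood apart the number was 2145, with 1416 higher and 729 lower, and 1191 of the original genes were among them in the same direction. Leaving out single blast animals gave between 1061 and 1870 genes. The lowest number came without chronic animal CB136, which moved the count by more than 1.5 times.

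**Figure D1:**
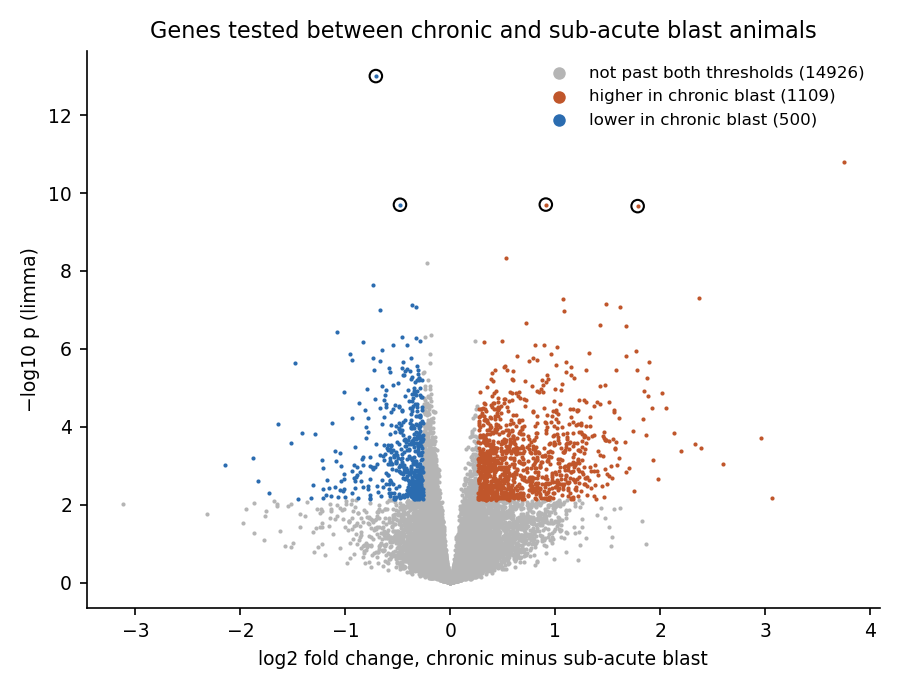
Each point is 1 of 16535 genes, with the log2 fold change of chronic minus sub-acute blast animals on the x axis and -log10 of limma's p on the y axis. Orange points are the 1109 genes called higher, blue points the 500 called lower, gray points the genes not past both thresholds, and circles mark the 4 genes described by animal.

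The changes were mostly small. Higher genes had a median fold change of 1.48, with quartiles of 1.30 and 1.91, and lower genes a median of 1.31, with quartiles of 1.24 and 1.48. Among the higher genes, 569 changed by less than 1.5-fold and 242 by 2-fold or more, and 11 of these reached 4-fold. Among the lower genes, 385 changed by less than 1.5-fold, 36 by 2-fold or more and 1 by over 4-fold. Large changes were thus more common among higher genes, at 21.8% with 2-fold or more against 7.20% of lower genes. Higher genes also had fewer counts than lower genes, as given below, and genes with few counts had larger errors. Such genes pass only with larger changes, and the part of this in the sizes was not tested. At a log2 fold change of at least 1.2, 89.2% of the genes past the thresholds were higher, and 16 genes were lower.

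Few genes separated the cohorts completely. In 2 genes every chronic blast animal lay above every sub-acute blast animal, and both were among the genes called (6.71% of all genes tested were called higher). In another 2 every chronic animal lay below, and 1 of these was among the genes called (3.02% were called lower). A called gene typically had 12 of 14 chronic animals above the sub-acute median if higher, and 13 of 14 below it if lower. In 151 of the 1109 higher genes and 123 of the 500 lower genes all 14 chronic animals were on the same side of the sub-acute median. The called genes were chosen for their difference between these groups, which partly sets such counts. The same counts over all genes tested were not made.

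ENSRNOG00000025745, lower in chronic animals, had the smallest p of all genes tested. Its level ran from 19.7 to 25.6 CPM (counts relative to the TMM-scaled library total) in sub-acute blast animals, with a median of 22.8, and from 10.8 to 19.0 CPM in chronic blast animals, with a median of 13.5. The ranges did not overlap, and all 14 chronic animals lay below the lowest sub-acute one. The log2 fold change was -0.71 (SE 0.07, adjusted p = 1.6e-09 in limma), a 1.64-fold lower level. In sham animals its level ran from 18.2 to 27.2 CPM at the sub-acute and from 11.2 to 23.3 CPM at the chronic time-point, with medians of 21.2 and 14.2. The sham log2 fold change was -0.54 (SE 0.07), and the difference between blast and sham was -0.17 (SE 0.11, p = 0.11 in limma, adjusted p = 0.84).

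ENSRNOG00000049349 was the second lower gene by p. Sub-acute blast animals had 122.6 to 159.7 CPM with a median of 140.7, and chronic blast animals 76.3 to 127.2 CPM with a median of 102.7. Only 1 chronic animal reached the sub-acute range, while the other 13 lay below it. The log2 fold change was -0.48 (SE 0.06, adjusted p = 7.2e-07 in limma) in blast and -0.28 (SE 0.06, adjusted p = 0.0091) in sham. The difference of -0.20 (SE 0.09) had a p of 0.026 in limma and an adjusted p of 0.84. With surrogate variables in the model its fold change fell under 1.2, at a log2 value of -0.24.

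Among higher genes with at least 10 counts in the median chronic animal, ENSRNOG00000039463 had the smallest p. A gene with a smaller p had a median under 10 counts in both groups and is not named. The level of ENSRNOG00000039463 was low, with 48 to 96 counts per animal at the sub-acute time-point and at least 57 at the chronic time-point. Sub-acute blast animals had 0.928 to 1.94 CPM with a median of 1.13, and chronic blast animals 1.50 to 3.42 CPM with a median of 2.19. The groups overlapped, with 11 of 14 chronic animals above the sub-acute range and all 14 above the sub-acute median. Its log2 fold change was 0.91 (SE 0.12, adjusted p = 7.2e-07 in limma) in blast and 0.88 (SE 0.12, adjusted p = 3.6e-06) in sham, and the difference of 0.03 (SE 0.17, p = 0.87 in limma, adjusted p = 0.99) was smaller than its error.

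ENSRNOG00000048230 was the higher gene with the next smallest p and the largest change of the 4. Sub-acute blast animals had 3.78 to 11.3 CPM with a median of 6.08, and chronic blast animals 12.0 to 52.6 CPM with a median of 20.5. Every chronic blast animal was above every sub-acute one, but the chronic animals themselves spread widely, with an SD of 0.75 in log2 CPM against 0.45 in sub-acute animals (n = 14 and 17). The log2 fold change was 1.78 (SE 0.24, adjusted p = 7.2e-07 in limma), a 3.44-fold higher level. In sham animals the groups overlapped, with 5.04 to 30.3 CPM at the sub-acute and 7.89 to 41.1 CPM at the chronic time-point. The sham SDs had the opposite order, 0.77 at the sub-acute and 0.64 at the chronic time-point. Sub-acute sham animals AS238, AS204 and AS224 had 30.3, 27.0 and 18.6 CPM, and the other 14 had at most 11.2 CPM. The sham log2 fold change was 0.95 (SE 0.23, adjusted p = 0.015 in limma). The change in blast exceeded that in sham by 0.83 (SE 0.33, p = 0.015 in limma), which did not pass adjustment (adjusted p = 0.84). The part of those 3 sham animals in this difference was not tested. With surrogate variables in the model its blast log2 fold change was 0.84 (adjusted p = 1.5e-08 in limma).

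**Figure D2:**
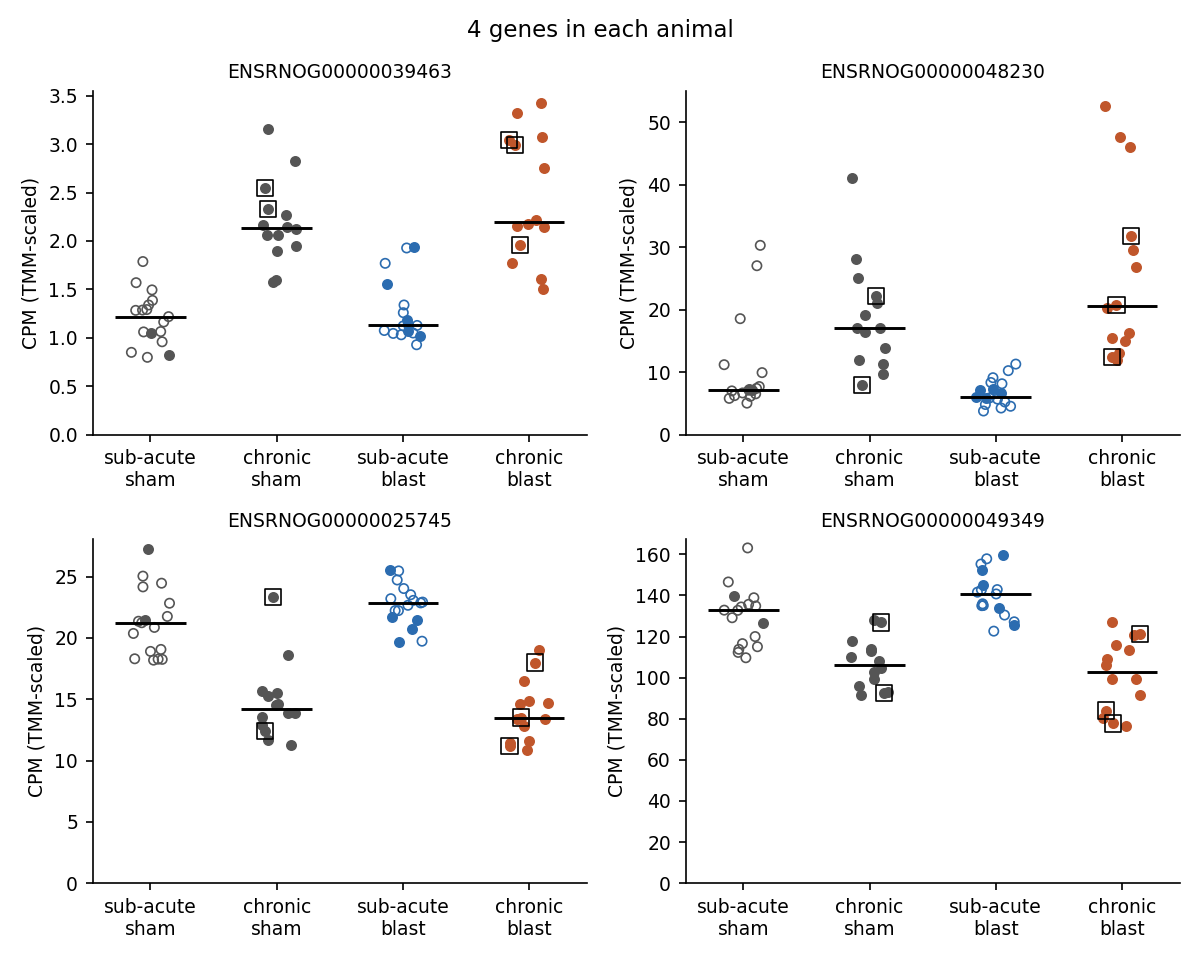
TMM-scaled CPM of 4 genes in each of the 62 animals, with a line at the median of each group. Filled points are animals of number series 1, open points those of other series, and squares mark the 5 libraries that stood apart; in the blast groups the ranges of ENSRNOG00000048230 and ENSRNOG00000025745 do not overlap, while those of the other 2 genes do.

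Whether a gene was called higher or lower went with how many counts it had. The genes tested were divided into quintiles by their mean count over the 31 blast animals. In the lowest quintile, with mean counts between 4.06 and 69.4, 12.9% of genes were called higher and 1.24% lower. In the middle quintile the shares were 6.02% and 3.33%, and in the highest quintile, from 3269 mean counts upward, 1.36% and 4.08%. The median log2 fold change over all genes of a quintile ran in the same order, from 0.18 in the lowest through -0.01 in the middle to -0.08 in the highest quintile. In sham animals the corresponding medians were 0.14, -0.01 and -0.06. The median SE of the log2 fold change was 0.28 in the lowest and 0.08 in the highest quintile. A higher gene had a median of 151.5 mean counts and a lower gene 1118, against 767.4 for all genes tested. In 656 of the 16535 genes tested the median sub-acute blast animal had fewer than 10 counts, among them 145 higher and 0 lower genes. The filter on low counts partly sets these numbers. A gene that low in sub-acute blast animals and lower still in chronic ones would seldom be tested.

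**Figure D3:**
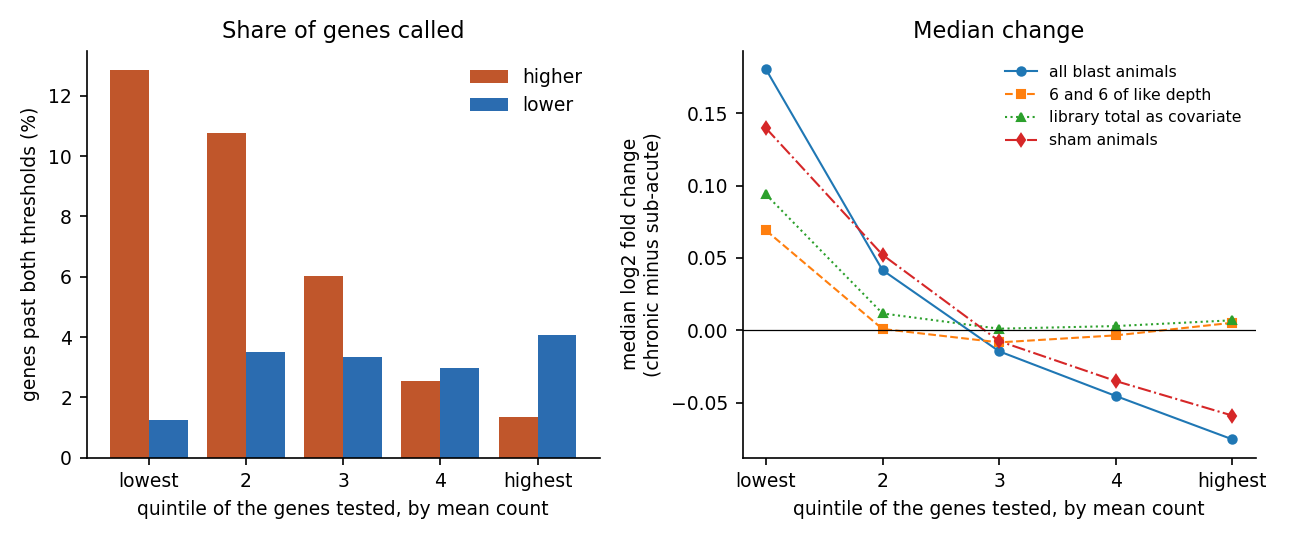
Left, bars starting at 0 give the percent of genes in each quintile by mean count that were called higher or lower in chronic blast. Right, the median log2 fold change of chronic minus sub-acute animals in each quintile is drawn for all blast animals, for the 6 and 6 blast animals of like depth, with library total as a covariate, and for sham animals; the first and the last fall from left to right through 0, and the other 2 lie near 0 beyond the lowest quintile.

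The level of the higher genes also differed between deep and shallow libraries of the chronic group. For each animal the mean log2 CPM over the 1109 higher genes was taken relative to the mean of the sub-acute blast animals. These genes were chosen for their difference between both groups, so the values describe the animals and test nothing. In the 8 chronic animals with totals between 18220986 and 37589381, below all sub-acute blast libraries, the value ran from 0.51 to 1.21 with a median of 1.04. In the 6 chronic animals with totals between 43423798 and 51769475 it ran from 0.18 to 0.47 with a median of 0.37, so the shallow and the deep chronic libraries did not overlap. Sub-acute blast animals in that depth range, also 6, had values from -0.14 to 0.39 with a median of 0.05, and the 11 deeper ones from -0.15 to 0.32 with a median of -0.08. The sub-acute blast animal with the highest value, AB226 at 0.39, was the shallowest of its group, and the one with the next highest, AB236 at 0.32, was the deepest. High values were also present among sham animals. Sub-acute sham animals ran from -0.15 to 0.75 with a median of 0.10, and AS204, AS224 and AS238 had 0.74, 0.70 and 0.75, above all 6 deep chronic blast animals. Their totals were 49180354, 40176549 and 40129159, the first inside the depth range shared by both blast groups and the other 2 just below it. Chronic sham animals ran from 0.14 to 1.11 with a median of 0.42.

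The lower genes did not split in this way. Over the 500 lower genes the shallow chronic libraries ran from -0.76 to -0.24 with a median of -0.52, and the deep ones from -0.71 to -0.26 with a median of -0.43. Both medians were below the lowest sub-acute blast animal, AB236, at -0.29. Sub-acute sham animals ran from -0.43, in AS237, to 0.13 with a median of -0.05. Chronic sham animals ran from -0.74 to 0.0054 with a median of -0.37. Between the 6 chronic and 6 sub-acute blast animals of like depth, the median log2 fold change was -0.39 over the lower genes, as in all 31 animals (-0.39). Over the higher genes it was 0.20, against 0.57 in all animals. Of the higher genes 878 and of the lower genes 486 kept their sign. The lists were chosen on groups that include these 12 animals, so the medians and signs are partly set by that choice. Only 9 genes passed the thresholds between these 12 animals, 3 higher and 6 lower, and both named lower genes were among them, ENSRNOG00000025745 at -0.69 (adjusted p = 0.012 in limma) and ENSRNOG00000049349 at -0.47 (adjusted p = 0.028). The 2 named genes that were higher did not pass, at 0.38 (adjusted p = 0.33 in limma) for ENSRNOG00000039463 and 1.32 (adjusted p = 0.12) for ENSRNOG00000048230.

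**Figure D4:**
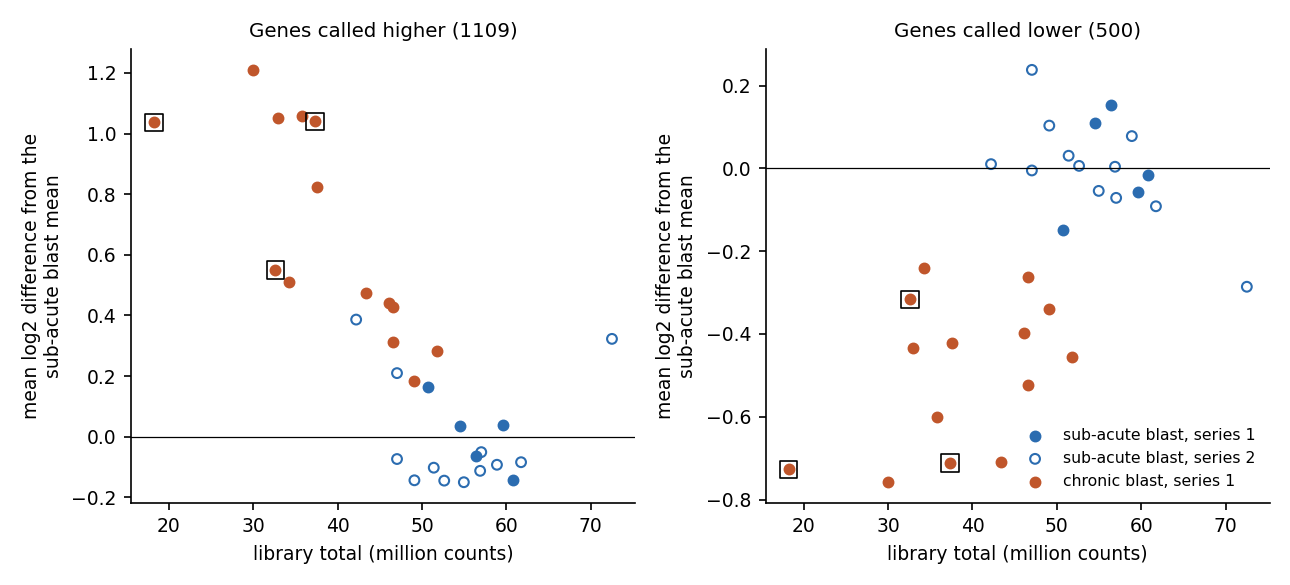
Each point is 1 blast animal, with its library total on the x axis and its mean log2 difference from the sub-acute blast mean on the y axis, over the 1109 genes called higher (left) and the 500 called lower (right). Filled points are number series 1, open points series 2 and squares libraries that stood apart; the 8 shallow chronic libraries lie at 0.51 or more on the left, above the 6 deeper ones, whereas on the right both sets cover a similar range.

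Adding the log2 library total as a covariate turned the balance, to 186 higher and 373 lower genes. In that fit 100 of the 1109 higher genes (9.02%) and 184 of the 500 lower genes (36.8%) passed again. Thinning every library to the smallest total, so that all had equal depth, kept the balance, with 929 higher and 392 lower genes. Scaling by library size without TMM gave 1197 higher and 299 lower genes, a higher share of 80.0% against 68.9%. The part of RNA quality or input in the link with depth was not tested.

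All 14 chronic blast animals carry numbers that begin with 1, as do 5 of the 17 sub-acute blast animals, while the other 12 begin with 2. What the series stand for is not given in the sources used here. Within series 1, 14 genes passed the thresholds (0.0786% of 17811 tested), 4 higher and 10 lower, and all 14 were among the 1609. The sizes of change were similar there, with a median log2 fold change of 0.55 over the 1109 higher genes and -0.41 over the 500 lower genes, from the same chronic animals. Between series 2 and series 1 of the sub-acute blast animals, 0 genes passed in limma, and 302 had an unadjusted p under 0.05 among 16535 tested. That comparison set 12 against 5 animals, with a spread shared with the more variable chronic animals. The 0 therefore does not show that the series are alike. In a fit of all 62 animals with the sub-acute blast group divided by series, chronic blast animals differed in 57 genes from series 1 (20 higher and 37 lower) and in 1131 from series 2 (751 higher and 380 lower). In that fit ENSRNOG00000025745 was 0.65 lower than in series 1 (-0.65, SE 0.10, adjusted p = 0.00053 in limma; 0.043 with series 1 fitted alone) and 0.73 lower than in series 2 (-0.73, SE 0.08, adjusted p = 9.1e-09). ENSRNOG00000048230 likewise had log2 fold changes of 1.75 (SE 0.36, adjusted p = 0.017 in limma) and 1.80 (SE 0.26, adjusted p = 1.7e-05). With the series as a covariate, 276 genes passed, 53.6% of them higher, and 253 of these were among the 1609. The median log2 fold changes in that fit were 0.57 over the 1109 higher and -0.40 over the 500 lower genes, and all of them kept their sign. Both lists were chosen on these same blast animals. The medians and signs in this fit and within series 1 are therefore partly set by that choice and test nothing.

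Chronic blast animals varied more among themselves than sub-acute ones. The median SD of log2 CPM over all genes tested was 0.37 in chronic and 0.22 in sub-acute blast animals, and without animals CB111, CB147 and CB149 the chronic value was 0.25. Over the higher genes the SD was 0.54 in chronic and 0.34 in sub-acute animals, and it stayed at 0.49 without those 3 libraries. Over the lower genes it was 0.37 and 0.26, and 0.29 without them. The share of higher genes in which a chronic animal exceeded all sub-acute blast animals ran from 13.8% in animal CB132 through a median of 35.9% to 85.1% in animal CB136. Chronic sham animals ran from 10.5% to 69.8% with a median of 24.2%. Sub-acute sham animals had a median share of 6.31%, but AS204, AS224 and AS238 had 57.9%, 53.6% and 58.9%, above the median of the chronic blast animals. For lower genes below the sub-acute blast range the share in chronic blast animals ran from 13.8% through a median of 36.8% to 68.0%. In chronic sham animals it ran from 10.8% through a median of 25.3% to 58.8%. The genes were chosen on the blast contrast, so these shares describe the animals and test nothing.

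Sham animals were set beside the blast animals for the same genes. Over the 1109 higher genes the median log2 fold change with time was 0.57 in blast and 0.26 in sham, and over the 500 lower genes -0.39 and -0.24, while over all genes it was -0.02 and -0.00. The lists were chosen on the blast values, so a smaller sham median is partly set by that choice. In the contrast of chronic and sub-acute sham animals from the same fit, 94 of the higher and 48 of the lower genes passed in the same direction, where 1.55% of all genes passed. The difference itself, obtained by subtracting the sham change from the blast change, passed adjustment in 0 genes in limma, with the smallest adjusted p at 0.84. At an unadjusted p under 0.05 there were 919 such genes (5.56% of those tested), and edgeR and DESeq2 also gave 0 after adjustment. The study, in contrast, reports that the interaction of treatment and time-point passed adjustment for Plpp3. That gene could not be looked up here without symbols, and the reason for the different outcome was not tested. Among the higher genes 241 (21.7%) and among the lower genes 69 (13.8%) had an unadjusted p under 0.05 for the difference, but the difference contains the contrast that chose them.

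Of the 1609 genes, 43 passed the thresholds in the same direction in all 12 alternative fits that kept every blast animal. Of these, 14 were higher, 1.26% of all higher genes, and 29 were lower, 5.80% of all lower genes. ENSRNOG00000039463, ENSRNOG00000048230 and ENSRNOG00000025745 were among them. Of the 12 fits, 1 tested only genes with at least 10 counts in every animal. Called genes below that bound could not be among the 43, whatever their change. In that fit 802 of the higher and 402 of the lower genes passed. The fewest genes passed again with surrogate variables, which 12.5% of the higher and 18% of the lower genes passed, with the number series, 12.6% and 22.6%, and with the library total, 9.02% and 36.8%. The sizes of change did not fall alike. With surrogate variables the median log2 fold changes were 0.16 over the higher and -0.18 over the lower genes, with the number series 0.57 and -0.40, and with the library total 0.30 and -0.36.

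**Figure D5:**
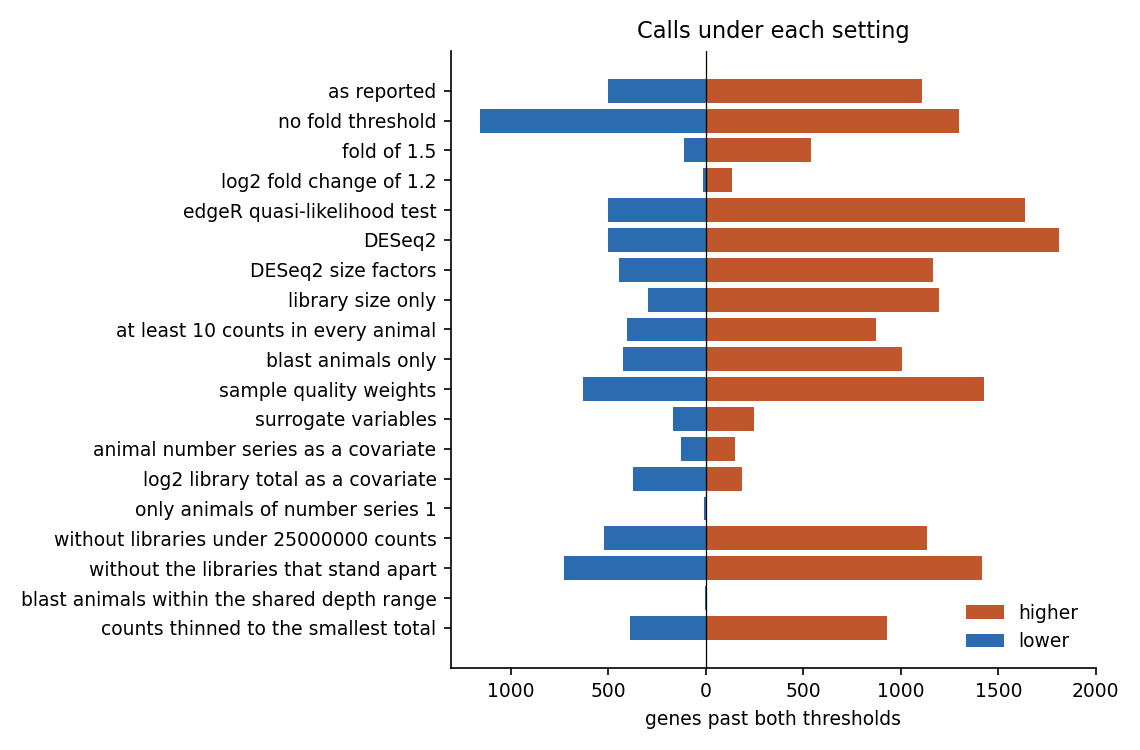
Bars starting at 0 give the number of genes past the thresholds in chronic against sub-acute blast animals, higher to the right and lower to the left, for the result as reported (1109 and 500) and 18 other settings. The fit without a filter on low counts, with 4741 higher and 678 lower genes, is left out of the drawing because of its length, and with the library total as a covariate the lower genes outnumber the higher ones.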

How the data were processed

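Stranded, rRNA-depleted libraries of amygdala RNA were sequenced as paired reads by the authors, who aligned them with STAR 2.4.2a to Ensembl Rnor_6.0 and counted them with featureCounts 1.4.3-p1. The deposited values are raw counts per gene and animal, without normalization. Strand setting and treatment of multi-mapping reads are not given in the sources used here, so overlapping genes and near-identical copies are uncertain. The table had 2 columns that match no sample title, used in no step. Groups came from the sample titles.

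Genes were filtered with edgeR 4.0.16 (filterByExpr), scaled by TMM and fitted with voom and limma 3.58.1 in R 4.3.3 to 4 group means over 62 animals, with Benjamini-Hochberg adjustment over 16535 genes. The study names voom in limma. It writes its threshold of 1.2 as a logFC, and this was read here as a fold change. Taken as a log2 fold change, 1.2 left 0.895% of the genes tested. Log2 CPM used a prior count of 2. The limma p-values set a difference between groups against the spread between animals, estimated over all 4 groups together. This estimate was shared although chronic blast animals varied more than sub-acute ones. Totals from 18220986 to 78585782 set the counting precision. Because no identifier had a symbol, the gene lists and the genes the study names were not analysed here, and 2 called genes per direction were described, taken in order of p where the median animal of the higher group had at least 10 counts. Members, lists and rules were chosen with earlier results of these data known. The model was tested on simulated counts. Alternatives used DESeq2 1.42.0 and sva 3.50.0 among others.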

Additional observations from a re-analysis of the deposited data

How the results depend on the processing

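Because settings differ in how many genes they test, the genes changed between chronic and sub-acute blast animals are given as a share of the genes tested, which was 9.73% (1609 genes). The share became 14.9% without a fold threshold (2456 genes), 3.96% at a fold of 1.5 (655 genes), 0.895% at a log2 fold change of 1.2, 20.6% without a filter on low counts (5419 genes), 2.51% with 9 surrogate variables (247 genes higher and 168 lower), 1.67% once number series entered the model (276 genes), 3.38% with library total (log2) in the model (559 genes), 0.0786% within number series 1 (14 genes) and 0.0534% between blast animals of like depth (9 genes). Other thresholds change the number by construction, and for the covariates and the smaller sets of animals the cause was not tested. Among animals of like depth the median log2 fold change of the higher genes was itself smaller, 0.20 against 0.57, while within series 1 it was 0.55. The other 10 settings gave between 1275 and 2312 genes (8.75% to 13.98%), and leaving out each of 31 blast animals gave between 1061 and 1870 (6.43% to 11.3%). The higher share rose to 76.5% with edgeR and 78.4% with DESeq2. The number of genes whose change differed between blast and sham was 0 under each of the 46 alternatives run for it, with adjusted p of at least 0.051. Over 47 alternatives each, the log2 fold changes of the 4 named genes kept their direction, with ENSRNOG00000025745 between -0.75 and -0.60 and past the thresholds in all. ENSRNOG00000039463 was also not past them within series 1 (adjusted p = 0.091 in limma). Leaving out the libraries that stood apart, the animals of like depth and thinning were chosen after seeing the data. The counts of gene list members were not run. No paired analysis was possible because each animal is in 1 group and its number is used once.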
